A study of Mus musculus with 34 samples.

Results

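Replicates 8 to 10 of the hairpin control of mouse colon tumour organoids were compared with replicates 5 to 7 of the same control. Organoids are 3-dimensional epithelial cultures, and all of these carried the genotype labelled AKP. Of the 34 libraries of polyadenylated RNA, 10 were labelled shControl, and the 6 libraries of these runs are described here. The others used were 3 libraries labelled shYAP, shControl replicates 1 to 4, 9 libraries each of Degs1-KO clone1 and clone2, and 3 Scrambled libraries. All 6 libraries carry the same genotype, tissue and treatment labels, and nothing in the labels sets the runs apart except the replicate and library numbers. Whether replicates were separate cultures is not stated, so n counts libraries.

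A control hairpin is a short RNA meant to load the RNA interference machinery without targeting a gene of the cell, so its replicates serve as the baseline of a knockdown. Cycling cells switch on DNA replication genes under E2F transcription factors. FOXO factors act on genes of growth factor withdrawal, and the hypoxia-inducible factor on vascular and glycolytic genes. In the colon, stem cells divide in the crypts and give rise to absorptive colonocytes and mucus-secreting goblet cells.

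The runs were drawn from the resemblance of these same libraries, so every difference between them is given as a description, with no test. Taking each library as its deviation from the mean of the 10 shControl libraries over 10411 genes, pairs within replicates 8 to 10 correlated at r from 0.387 to 0.406. Pairs within replicates 5 to 7 correlated at 0.162 to 0.328, and pairs across the runs at -0.189 to -0.024. These coefficients are across genes, which are not independent replicates, and deviations from a shared mean correlate negatively by construction. By these coefficients replicates 8 to 10 resembled each other more, which describes libraries already drawn for resemblance. Within replicates 5 to 7, the pairs with replicate 6, the shallowest library, gave 0.162 and 0.198, and replicates 5 and 7 gave 0.328. The part of depth in this was not tested.

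Total counts were 3979416, 5411092 and 4894920 in replicates 8, 9 and 10, against 4997777, 2470845 and 3907147 in replicates 5, 6 and 7. The totals overlapped (exact permutation test, two-sided, p = 0.4, where 3 against 3 libraries cannot go below 0.1). Replicate 6 was the shallowest of the 6. Mitochondrially encoded genes took 4.95, 5.25 and 4.68% of counts in replicates 8, 9 and 10, against 3.86, 4.02 and 3.72% in replicates 5, 6 and 7. Thinned to the same total, replicates 8, 9 and 10 had 14101, 14172 and 14084 genes detected, against 14239, 14157 and 14148 in replicates 5, 6 and 7. Epithelial markers were present throughout, with 8 of 8 tested and a summed level of 2024 to 2153 CPM (counts scaled to a common library total) in replicates 8 to 10, against 2590 to 2677 CPM in replicates 5 to 7. Fibroblast and matrix markers summed to 0.187 to 1.15 CPM in replicates 8 to 10, against 0.786 to 3.19 CPM in replicates 5 to 7, with 0 of 13 passing the low-count filter. Immune markers summed to 15.3 to 20.8 CPM in replicates 8 to 10, against 25.9 to 40.6 CPM in replicates 5 to 7. Only 1 of 16 passed the low-count filter, and 9 were at 0 counts in all 6 libraries. Ptprc, an immune marker, had 0 counts in replicates 8 to 10 and 1 in replicates 5 to 7. The 4 Y-linked genes listed had 0 counts in all 6 libraries.

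Of 54354 genes in the table, 10411 passed the filter on low counts. A gene was called higher or lower where its mean log2 CPM differed by at least 1, a 2-fold difference, and the 3 libraries of each run did not overlap. By this rule 211 genes (2.03% of those tested) were called higher in replicates 8 to 10 and 376 (3.61%) lower. Without the fold, 1745 genes (16.8%) lay wholly above and 1845 (17.7%) wholly below. Since the runs were chosen from these values, nothing is read from the shares. The median difference of all genes tested was -0.02, the median of the genes called higher was 1.19 and that of the genes called lower was -1.26. Leaving out replicate 6 gave 374 genes higher and 536 lower. Of the genes called, 29 of those higher were under the filter's 2.25 CPM in every library of replicates 5 to 7, and 64 of those lower were under it in every library of replicates 8 to 10.

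**Figure D1:**
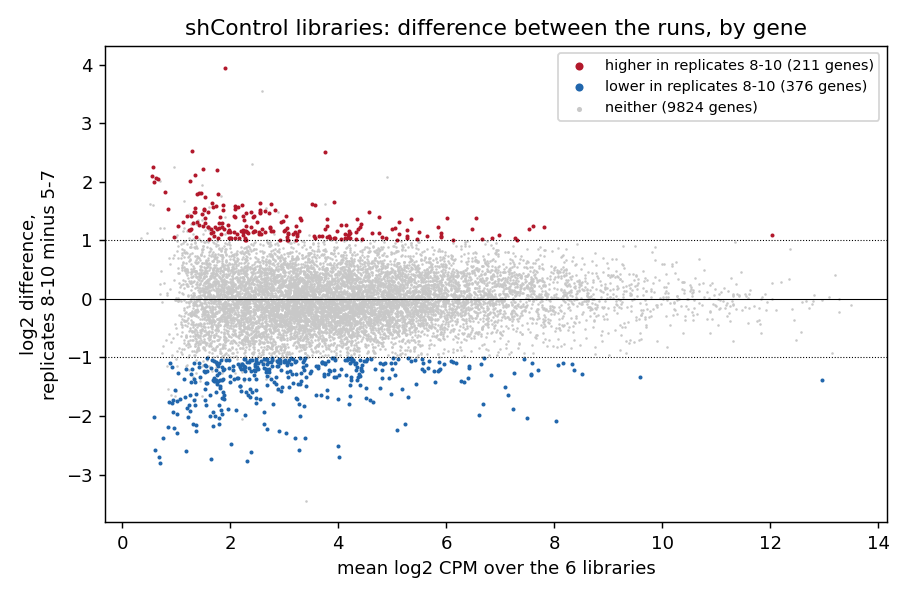
Each point is 1 of the 10411 genes tested, with its mean log2 CPM over the 6 libraries (horizontal axis) and the log2 difference of shControl replicates 8 to 10 minus 5 to 7 (vertical axis). Red points are the 211 genes called higher, blue points the 376 called lower, and dotted lines mark a 2-fold difference.

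The clearest group on the higher side was DNA replication. All 30 of the S phase genes listed were tested, all 30 had a positive difference, and 11 were called higher and 0 lower, with 26 wholly above. Their median log2 difference was 0.90, beside -0.02 for all genes tested. For this list and those below, 2.03% of all genes tested were called higher and 3.61% lower. Wholly above lay 16.8% of all genes tested, and wholly below 17.7%. Their summed level was 2359 to 2431 CPM in replicates 8 to 10, against 1281 to 1509 CPM in replicates 5 to 7. In shControl replicates 1 to 4 the same sum was 1272 to 1637 CPM.

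Many S phase genes carry E2F-type words in their promoters, and the 3 promoters of called S phase genes with such a word are shown here because these genes differed together. Windows of 300 bases, from 250 before to 50 after the gene start, were taken from RefSeq (GRCm38.p6), and 9 of the 11 called S phase genes had one. The words searched on both strands were TTTCCCGC, TTTGGCGC, TTTCGCGC and TTTGCCGC, and they are in capitals. Overlapping matches on opposite strands form a single run of capitals in Mcm5 and in Mcm6. Mcm5 lies at chr8:75109259-75109558 (plus strand), Mcm6 at chr1:128359656-128359955 (minus strand) and Cdc6 at chr11:98907901-98908200 (plus strand).
Mcm5: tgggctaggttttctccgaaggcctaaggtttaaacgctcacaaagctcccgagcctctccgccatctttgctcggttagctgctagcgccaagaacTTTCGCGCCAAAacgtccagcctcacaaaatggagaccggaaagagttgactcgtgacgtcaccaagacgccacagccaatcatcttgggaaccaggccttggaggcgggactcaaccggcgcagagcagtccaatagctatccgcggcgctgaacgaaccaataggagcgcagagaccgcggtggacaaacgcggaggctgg
Mcm6: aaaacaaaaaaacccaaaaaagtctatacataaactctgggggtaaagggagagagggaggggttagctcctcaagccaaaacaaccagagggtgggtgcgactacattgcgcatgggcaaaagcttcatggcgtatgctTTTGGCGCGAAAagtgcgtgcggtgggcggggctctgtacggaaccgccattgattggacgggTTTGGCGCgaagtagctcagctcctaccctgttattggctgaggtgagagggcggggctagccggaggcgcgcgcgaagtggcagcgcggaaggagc
Cdc6: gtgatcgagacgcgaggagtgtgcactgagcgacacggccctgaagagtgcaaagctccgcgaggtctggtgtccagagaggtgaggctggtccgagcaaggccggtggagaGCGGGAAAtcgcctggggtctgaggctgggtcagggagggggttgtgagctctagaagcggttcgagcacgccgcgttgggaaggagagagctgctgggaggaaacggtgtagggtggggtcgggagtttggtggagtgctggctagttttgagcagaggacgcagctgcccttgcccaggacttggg
Counted from the RefSeq gene start, with upstream bases negative, the capitals lie from -153 to -142 in Mcm5, within -110 to -40 in Mcm6 and from -138 to -131 in Cdc6. Such a word stood in 2.26% of all 32851 windows and in 5.05% of the tested genes with a window. It stood in 10 of the 24 S phase genes with a window (41.7%), in 22 of 162 genes called higher (13.6%) and in 8 of 275 called lower (2.91%). A match is a description of letters, and the other called genes with a window, Rrm2, Fen1 and Rfc4 among them, held none.

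Rrm2, the small subunit of ribonucleotide reductase, which makes deoxynucleotides, had 131.7, 175.7 and 148.5 CPM in replicates 8, 9 and 10. In replicates 5, 6 and 7 it had 61.1, 52.1 and 59.3 CPM, a log2 difference of 1.39 ± 0.14 (SE). Every library of replicates 8 to 10 stood above every library of replicates 5 to 7. Rrm2 lies on chromosome 12 (24708241 to 24714146, mm10, ENSMUSG00000020649). Fen1, the flap endonuclease that trims Okazaki fragments, had 50.7, 55.8 and 56.5 CPM in replicates 8, 9 and 10, against 21.4, 27.3 and 17.4 CPM in replicates 5, 6 and 7 (1.31 ± 0.19). Mcm5, a subunit of the replicative helicase, had 89.7, 81.9 and 92.4 CPM in replicates 8, 9 and 10, against 28.7, 57.0 and 31.9 CPM in replicates 5, 6 and 7 (1.22 ± 0.31). Replicate 6 stood nearer the other run for Mcm5. Rfc4, a clamp loader subunit, had 143.9, 140.1 and 120.2 CPM in replicates 8, 9 and 10, against 58.2, 61.3 and 56.3 CPM in replicates 5, 6 and 7 (1.19 ± 0.09).

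The remaining S phase genes called higher were Mcm4, Mcm6, Cdc6, Gins2, Tyms, Ccne1 and Cdc45, with log2 differences from 1.001 to 1.148. At the low end of the list were Rfc3 at 0.22, Cdt1, a licensing factor, at 0.28 and Tk1, thymidine kinase, at 0.39. Genes of G2 and mitosis had a positive difference in 25 of 26 members, with 0 called in either direction, 18 wholly above and a median of 0.42. Birc5, a chromosomal passenger subunit, had 283.0, 296.1 and 290.0 CPM in replicates 8, 9 and 10, against 173.2, 146.7 and 152.3 CPM in replicates 5, 6 and 7 (0.88 ± 0.07). Bub1, a spindle checkpoint kinase, differed by 0.80 ± 0.11 and Plk1, a mitotic kinase, by 0.70 ± 0.19.

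Replication-dependent histone genes did not follow the other S phase genes as a list. Of 9 tested, 1 was called higher and 2 lower, and the median of 0.26 and the mean of -0.14 had opposite signs. Leaving out replicate 6 moved the median to 0.70. H4c4 had 71.6, 54.9 and 68.3 CPM in replicates 8, 9 and 10, against 31.1, 22.3 and 22.2 CPM in replicates 5, 6 and 7 (1.36 ± 0.20). H1f2, a linker histone, had 11.2, 12.7 and 10.5 CPM in replicates 8, 9 and 10, against 30.1, 29.1 and 29.2 CPM in replicates 5, 6 and 7 (-1.33 ± 0.08). H1f5, another linker histone outside the list, was called higher at 1.38 ± 0.20. Histone genes are near-identical copies whose reads may be split between them, and most of their transcripts lack a poly(A) tail.

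**Figure D2:**
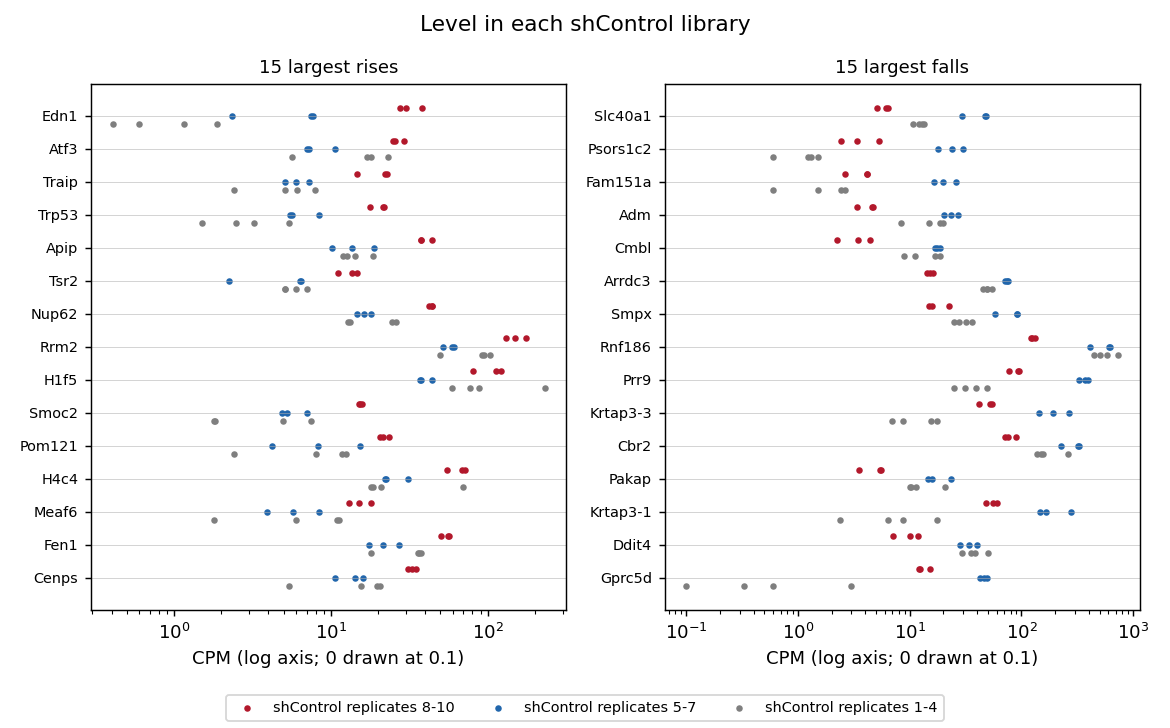
Points give the CPM (log axis) of the 15 genes with the largest rise (left) and the 15 with the largest fall (right) in each library of shControl replicates 8 to 10 (red), 5 to 7 (blue) and 1 to 4 (grey). Red and blue points do not overlap for any of these genes, since the rule asked for that, and the place of the grey points differs by gene. For Edn1, red points lie at 27.5 to 38.3 CPM and blue points at 2.36 to 7.73 CPM. Its grey points lie below both, at 0.406 to 1.88 CPM, while those of Slc40a1 lie between the runs.

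Growth-related lists stood on the same side. These lists were put together after the values had been seen and support nothing by themselves. Ribosome biogenesis and nucleolar genes had a positive difference in 40 of 40 members, with 3 called higher, 0 lower and a median of 0.66. Nop58, a core protein of box C/D small nucleolar particles, had 222.4, 229.8 and 208.9 CPM in replicates 8, 9 and 10, against 99.1, 123.6 and 100.2 CPM in replicates 5, 6 and 7 (1.04 ± 0.11). Nuclear pore and transport genes numbered 4 higher and 0 lower of 30, with a median of 0.54. Nup62, a central channel protein of the pore, had 42.0, 44.0 and 44.1 CPM in replicates 8, 9 and 10, against 14.7, 16.3 and 17.9 CPM in replicates 5, 6 and 7 (1.39 ± 0.08). Nucleotide synthesis genes numbered 2 higher and 0 lower of 23, with a median of 0.35. Umps, which makes uridine monophosphate, differed by 1.18 ± 0.20 and Ppat, the first enzyme of purine synthesis, by 1.01 ± 0.26. Cytosolic ribosomal protein genes, by contrast, had a median of -0.0008 over 34 members, with 0 called in either direction.

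Edn1, which encodes the vasoactive peptide endothelin-1, had the largest rise of the genes averaging log2 CPM of 3 or more. Its level was 38.3, 27.5 and 30.3 CPM in replicates 8, 9 and 10, against 2.36, 7.44 and 7.73 CPM in replicates 5, 6 and 7 (2.51 ± 0.53). In shControl replicates 1 to 4 it ran from 0.406 to 1.88 CPM. Edn1 lies on chromosome 13 (42301476 to 42307990, ENSMUSG00000021367). Trp53, the p53 tumour suppressor, had 17.7, 21.5 and 21.9 CPM in replicates 8, 9 and 10, against 8.45, 5.67 and 5.48 CPM in replicates 5, 6 and 7 (1.59 ± 0.21). Replicates 8 to 10 were also above all 4 libraries of replicates 1 to 4, which ran from 1.503 to 5.39 CPM. The list of p53 targets, which holds Trp53 itself, had 1 of 18 members called higher, 2 lower and a median of -0.02. Cdkn1a, a cell cycle inhibitor under p53, had 180.4, 146.5 and 149.0 CPM in replicates 8, 9 and 10, against 250.05, 208.3 and 298.3 CPM in replicates 5, 6 and 7 (-0.66 ± 0.18). Cdkn1a was chosen after its values were seen.

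Stress and signalling genes were mixed. In the list for the integrated stress response and serine synthesis, 2 of 26 were called higher and 1 lower, with a median of 0.68 and 15 wholly above. Atf3, a stress-induced transcription factor, had 29.1, 24.8 and 25.8 CPM in replicates 8, 9 and 10, against 7.08, 10.6 and 7.23 CPM in replicates 5, 6 and 7 (1.65 ± 0.19). Slc7a5, a large neutral amino acid transporter, was the other called higher, at 1.17 ± 0.31. Ddit4, an inhibitor of mTORC1, went the opposite way at -1.79 ± 0.26, with 10.1, 7.04 and 11.8 CPM in replicates 8, 9 and 10, against 27.9, 40.4 and 34.1 CPM in replicates 5, 6 and 7. Among goblet cell genes, 0 of 8 were called and the median was 0.48, with 7 positive, 4 wholly above and 0 wholly below. They summed to 221 to 235 CPM in replicates 8 to 10, against 151 to 176 CPM in replicates 5 to 7. Tff3, a secreted trefoil peptide, had 21.8, 18.8 and 25.6 CPM in replicates 8, 9 and 10, against 16.5, 16.7 and 10.97 CPM in replicates 5, 6 and 7 (0.59 ± 0.23).

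The largest falls included a regulator of metabolism and growth. Arrdc3, an arrestin-domain protein that sends membrane receptors for degradation, had 14.2, 16.2 and 15.3 CPM in replicates 8, 9 and 10. In replicates 5, 6 and 7 it had 75.5, 74.0 and 71.5 CPM, a difference of -2.24 ± 0.06. Both runs were tight and far apart. In shControl replicates 1 to 4, Arrdc3 ran from 45.5 to 53.9 CPM, between the runs. It stands in a list of FOXO and growth factor withdrawal genes, also put together after the values were seen, in which 6 of 22 were called lower, 0 higher and the median was -0.62. Also called lower in this list were Ccng2, an unconventional cyclin (-1.54 ± 0.14), Crebrf (-1.69 ± 0.17), Insr, the insulin receptor (-1.15), Pik3ip1, an inhibitor of phosphoinositide 3-kinase (-2.20), and Ypel3 (-1.29 ± 0.42).

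Hypoxia and glycolysis genes were lower in most members. Of 31 tested, 27 had a negative difference, 21 lay wholly below, 3 were called lower and 0 higher, with a median of -0.45. The share called was 9.68%, beside 5.64% of all genes tested, of which 17.7% lay wholly below. Adm, the vasodilator peptide adrenomedullin and a target of the hypoxia-inducible factor, had 4.59, 3.35 and 4.67 CPM in replicates 8, 9 and 10, against 27.1, 20.2 and 23.2 CPM in replicates 5, 6 and 7 (-2.37 ± 0.19). Vegfa, the vascular growth factor, had 44.1, 35.4 and 43.4 CPM in replicates 8, 9 and 10, against 74.9, 75.5 and 87.2 CPM in replicates 5, 6 and 7 (-0.95 ± 0.12). P4ha1, a collagen prolyl hydroxylase, was called lower at -1.05 ± 0.39.

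Absorptive and xenobiotic lists had negative medians, with calls only on the lower side, unlike the goblet cell list with its positive median. Absorptive colonocyte genes had 4 of 13 called lower and 0 higher, with 10 negative and 3 positive differences and a median of -0.58. Muc13, a membrane mucin, had 67.9, 49.1 and 54.2 CPM in replicates 8, 9 and 10, against 143.1, 106.6 and 138.8 CPM in replicates 5, 6 and 7 (-1.18 ± 0.19). Lypd8, which keeps flagellated bacteria off the colonic epithelium, differed by -1.71 ± 0.41 and Fabp2, a fatty acid binding protein, by -1.40 ± 0.49. Rnf186, a ubiquitin ligase of the intestinal epithelium, had 132.7, 124.8 and 122.7 CPM in replicates 8, 9 and 10, against 624.7, 408.5 and 601.7 CPM in replicates 5, 6 and 7 (-2.08 ± 0.20). It ran from 449.2 to 734.7 CPM in shControl replicates 1 to 4, which is within or near the span of replicates 5 to 7. Xenobiotic P450 and glucuronosyltransferase genes had 4 of 12 called lower and 0 higher, with a median of -0.69. Their differences were negative for 8 and positive for 4, among the latter Ugt1a7c at 0.86 and Abcg2 at 0.53, so the list did not fall as a whole. Cyp2c55, a cytochrome P450 that also stands in the absorptive list, had 12.6, 14.8 and 14.02 CPM in replicates 8, 9 and 10, against 41.5, 27.6 and 28.2 CPM in replicates 5, 6 and 7 (-1.18 ± 0.20). Abcc2, an efflux pump for conjugated compounds, differed by -2.23 ± 0.39, Cyp2b10 by -1.24 ± 0.34 and Ugt2b34, a glucuronosyltransferase, by -1.02 ± 0.13.

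An iron exporter had the largest fall. Slc40a1, ferroportin, the only known exporter of iron from animal cells, had 6.43, 5.11 and 6.17 CPM in replicates 8, 9 and 10, against 48.0, 29.4 and 47.4 CPM in replicates 5, 6 and 7 (-2.70 ± 0.25). This was the largest fall of the genes averaging log2 CPM of 3 or more, and shControl replicates 1 to 4 lay between the runs at 10.8 to 13.5 CPM. Of 26 lysosomal genes, 20 had a negative difference, 0 were called, 15 lay wholly below and 3 wholly above, with a median of -0.46. Ctsd, cathepsin D, had 379.4, 377.3 and 361.1 CPM in replicates 8, 9 and 10, against 802.6, 607.6 and 782.4 CPM in replicates 5, 6 and 7 (-0.96 ± 0.13). Ctsc, cathepsin C, was on the other side at 0.73 ± 0.08. Other large falls were Smpx, with 15.8, 22.5 and 14.8 CPM in replicates 8, 9 and 10, against 91.4, 58.5 and 90.2 CPM in replicates 5, 6 and 7 (-2.14 ± 0.28), and Cbr2, a carbonyl reductase (-1.87 ± 0.20).

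Hair-type genes were lower in replicates 8 to 10 than in replicates 5 to 7, yet above replicates 1 to 4. Hair-type keratins summed to 138 to 147 CPM in replicates 8 to 10, against 241 to 264 CPM in replicates 5 to 7, and to 19.8 to 42.3 CPM in replicates 1 to 4. Of 10 tested, 3 were called lower, 0 higher, and the median was -0.80, or -0.58 with the libraries thinned to the same total. Krt83 had 14.5, 11.3 and 13.7 CPM in replicates 8, 9 and 10, against 39.1, 35.4 and 41.1 CPM in replicates 5, 6 and 7 (-1.53 ± 0.12). Krt32 differed by 0.10 ± 0.22, so the keratins did not differ alike. Hair keratin-associated proteins, a list put together after the values were seen, numbered 5 lower and 0 higher of 6, and summed to 195 to 219 CPM in replicates 8 to 10, 704 to 958 CPM in replicates 5 to 7 and 40.6 to 87.7 CPM in replicates 1 to 4. Prr9, a proline-rich protein of that list, had 77.8, 94.5 and 93.9 CPM in replicates 8, 9 and 10, against 327.1, 392.2 and 372.9 CPM in replicates 5, 6 and 7 (-2.03 ± 0.12). Krtap3-3 differed by -1.98 ± 0.28 and Krtap3-1 by -1.79 ± 0.30, and reads of these close copies may be split between them. The share called among simple and basal epithelial keratins was 7.69%, beside 5.64% of all genes tested. Of 13, 1 was called higher, 0 lower, and the median was -0.43. That gene, Krt6a, a stress keratin, had 4.13, 3.17 and 4.49 CPM in replicates 8, 9 and 10, against 2.56, 0.709 and 0.498 CPM in replicates 5, 6 and 7.

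**Figure D3:**
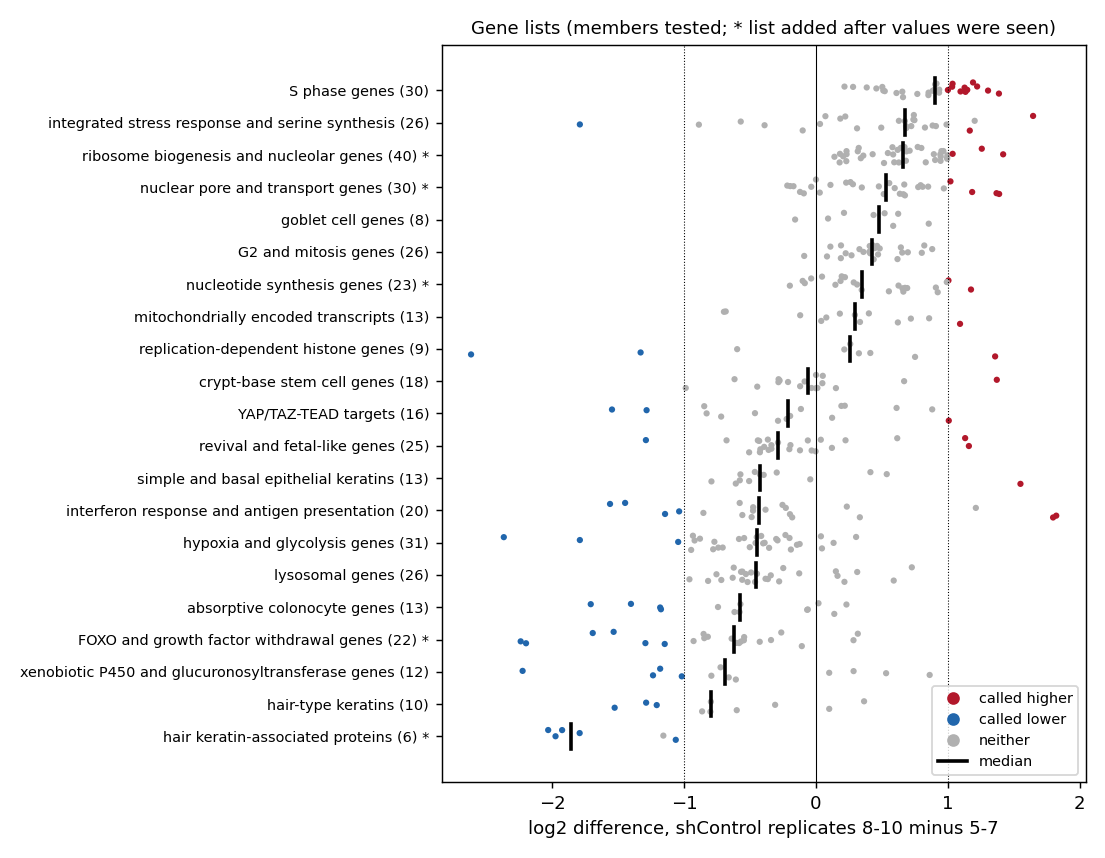
Each row is a gene list with its number of members tested, each point a member's log2 difference, replicates 8 to 10 minus 5 to 7, and each bar the list's median. Red points were called higher and blue points lower, from S phase genes at the top (median 0.90) to hair keratin-associated proteins at the bottom (median -1.86), and starred lists were put together after the values were seen.

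Regeneration and YAP lists had negative medians, while the crypt-base list had a median close to the -0.02 of all genes tested. The shares called were 5.56, 12 and 18.8% in the crypt, regeneration and YAP lists, beside 5.64% of all genes tested. Of 18 crypt-base stem cell genes, 11 had a negative difference, 1 was called higher and 0 lower, with a median of -0.06. The gene called was Smoc2, a secreted matrix protein, with 15.1, 15.3 and 15.7 CPM in replicates 8, 9 and 10, against 4.91, 7.09 and 5.23 CPM in replicates 5, 6 and 7 (1.37 ± 0.15). Axin2, a Wnt target and feedback inhibitor, had 70.2, 61.6 and 84.3 CPM in replicates 8, 9 and 10, against 160.4, 108.4 and 165.5 CPM in replicates 5, 6 and 7 (-0.99 ± 0.24), without a call. Revival and fetal-like genes numbered 2 higher and 1 lower of 25, with a median of -0.29, and 19 had a negative difference, 11 wholly below and 3 wholly above. Areg, an EGF receptor ligand, had 33.97, 39.97 and 34.97 CPM in replicates 8, 9 and 10, against 15.7, 14.9 and 18.4 CPM in replicates 5, 6 and 7 (1.13 ± 0.12). Ly6d, a surface protein, differed by -1.29 ± 0.10. Of 16 YAP/TAZ-TEAD targets, 10 had a negative difference, 1 was called higher and 2 lower, with a median of -0.21. Gadd45b, a stress sensor, differed by -1.55 ± 0.29 and Fosl1, an AP-1 subunit, by 1.01 ± 0.21, or 0.74 with the libraries thinned. Yap1 and Degs1, the genes targeted elsewhere in the study, had no call here, at -0.16 ± 0.20 and 0.46 ± 0.31.

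Interferon and antigen presentation genes were called in both directions, with most differences negative. Of 20 tested, 15 had a negative difference, 9 lay wholly below and 2 wholly above, 2 were called higher and 4 lower, and the median was -0.43 and the mean -0.22. Ifit1, an interferon-induced RNA-binding protein, had 4.36, 5.11 and 4.30 CPM in replicates 8, 9 and 10, against 0.590, 1.06 and 1.495 CPM in replicates 5, 6 and 7 (1.80 ± 0.27). Stat2, which carries the type I interferon signal, had 3.21, 1.23 and 2.62 CPM in replicates 8, 9 and 10, against 7.08, 8.502 and 6.73 CPM in replicates 5, 6 and 7 (-1.56 ± 0.35). Irf7, a transcription factor of the same pathway, differed by -1.45 ± 0.41. All of these are low levels, resting on few counts.

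Mitochondrially encoded and long nuclear RNAs, whose shares serve as signs of RNA quality, also differed, and their part in the other differences was not tested. Of 13 mitochondrially encoded genes, 10 had a positive difference, 1 was called higher and 0 lower, with a median of 0.30. mt-Nd1, a complex I subunit, had 6019, 6496 and 5771 CPM in replicates 8, 9 and 10, against 2976, 2807 and 2780.5 CPM in replicates 5, 6 and 7 (1.09 ± 0.06). mt-Co1, a complex IV subunit from the same strand, had 630.7, 614.1 and 555.7 CPM in replicates 8, 9 and 10, against 989.8, 989.8 and 940.1 CPM in replicates 5, 6 and 7 (-0.70 ± 0.06). Transcripts of the same genome thus differed in opposite directions. Malat1, a nuclear-retained RNA, had 4717, 4813 and 5290 CPM in replicates 8, 9 and 10, against 15438, 9673 and 14348 CPM in replicates 5, 6 and 7 (-1.39 ± 0.22). Neat1, which scaffolds paraspeckles, had 259.6, 218.9 and 227.9 CPM in replicates 8, 9 and 10, against 706.5, 442.8 and 595.4 CPM in replicates 5, 6 and 7 (-1.28 ± 0.21). Malat1 and Neat1 were chosen after their values were seen. In their list of long nuclear noncoding RNAs, 8 of 8 tested had a negative difference, 4 lay wholly below, 2 were called lower and 0 higher, and the median was -0.38. Xist, the RNA that silences an X chromosome in female cells, had 458.1, 435.4 and 426.2 CPM in replicates 8, 9 and 10, against 829.6, 796.0 and 787.8 CPM in replicates 5, 6 and 7 (-0.87 ± 0.04).

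The difference was also set against genomic position and gene structure. The median per chromosome lay between -0.08 and 0.04 for the autosomes and the X. Across genes, the difference had a Spearman rho of -0.13 with transcript length and -0.05 with GC content. Split into 4 equal groups by transcript length, the genes with the shortest transcripts had a median of 0.05 and those with the longest -0.13. Of 323 long noncoding RNA genes, 10 were called higher and 28 lower (3.10 and 8.67%), beside 1.94 and 3.35% of 9832 protein-coding genes.

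A library left out of the choice gave a looser picture of the runs. Genes were called again from the other 5 libraries, and the left-out library was placed by those genes. Replicates 8, 9 and 10 each fell on the side of their own run for 78.2, 80.3 and 76.2% of such genes. Replicates 5, 6 and 7 did so for 72.3, 65.6 and 72.8%. Replicate 6, the shallowest library, was the least like its run. The left-out libraries had still been used to draw the runs, so these shares are a description too.

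The other libraries of the study were placed between the runs by the 587 called genes (5.64% of those tested), at 0 for the mean of replicates 5 to 7 and 1 for that of replicates 8 to 10. The libraries labelled shYAP had a median position of 0.77, with 69.0% of genes nearer to replicates 8 to 10 and 32.7% beyond them. shControl replicates 1 to 4 had a median position of 0.38, with 38.2% of genes nearer to replicates 8 to 10. Scrambled libraries stood at 0.64, clone1 at 0.43 and clone2 at 0.22. Clone1 was not uniform, with its replicates 7 to 9 at 0.68 to 0.73 and its replicates 1 to 6 at 0.19 to 0.28. Clone2 libraries lay between 0.12 and 0.32 throughout. The 587 genes were picked for a wide gap between the runs, which favours places between 0 and 1 for any other library. Positions over all genes tested are not given here, so these shares have no background beside them.

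**Figure D4:**
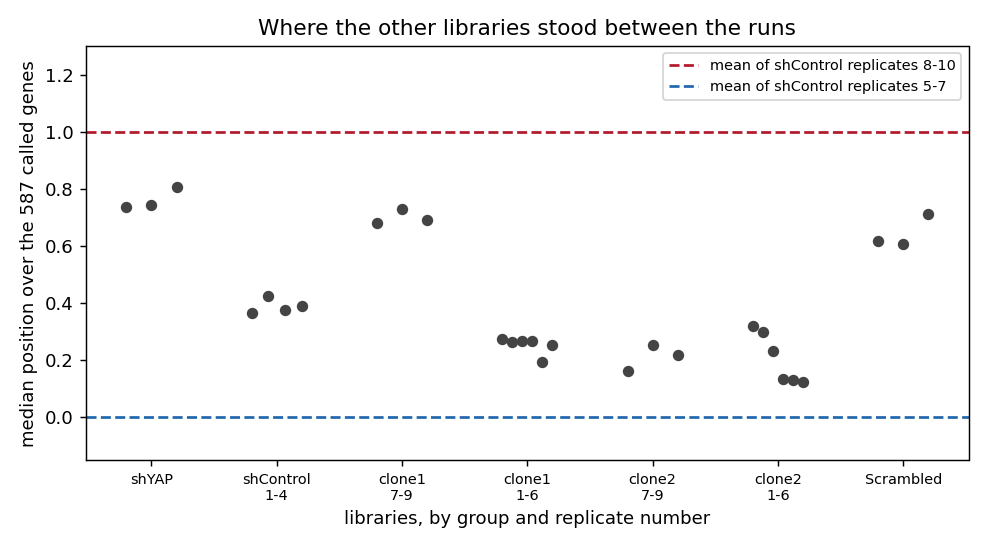
Each point is 1 library outside the runs, placed by its median position over the 587 called genes, where 0 is the mean of shControl replicates 5 to 7 and 1 that of replicates 8 to 10. Libraries labelled shYAP lie at 0.73 to 0.81, and clone1 replicates 7 to 9 lie at 0.68 to 0.73, above clone1 replicates 1 to 6 at 0.19 to 0.28.

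The contrast within the clones bears on libraries that the choice of runs did not use. In clone1, replicates 7 to 9 minus 1 to 6 had a median log2 difference of 0.58 over the 211 genes called higher, positive for 182 of them (86.3%). Over the 376 genes called lower the median was -0.51, positive for 46 (12.2%), beside 0.04 and 54.5% over all 10411 genes. In clone2 the same contrast had medians of 0.14 (66.4% positive) and 0.02 (51.9% positive) for these sets, beside 0.003 (50.4%) over all genes. The replicate numbers 7 to 9 and 1 to 6 were themselves grouped with earlier results known, and the difference between the clones was not tested. Rrm2 had 202.7, 227.8 and 203.4 CPM in clone1 replicates 7, 8 and 9, against 45.2 to 119.8 CPM in clone1 replicates 1 to 6. The lowest of these was replicate 2, a library of 883253 counts, and the others ran from 87.9 CPM. In clone2, Rrm2 had 45.5, 47.0 and 43.1 CPM in replicates 7, 8 and 9, within the 35.1 to 67.8 CPM of replicates 1 to 6.

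**Figure D5:**
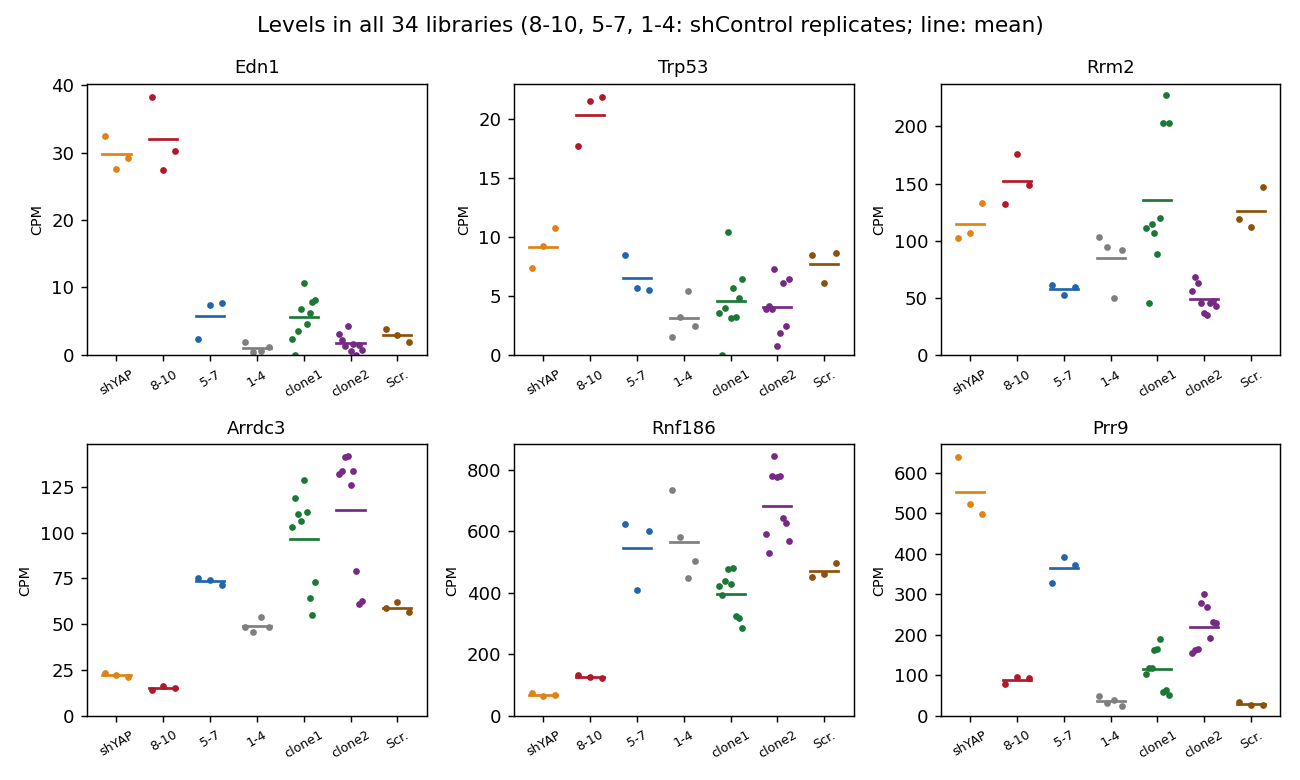
CPM of 6 called genes in every library of the study, grouped as shYAP, shControl replicates 8 to 10, 5 to 7 and 1 to 4, clone1, clone2 and Scrambled (Scr.), with lines at group means. For Edn1, the libraries labelled shYAP (27.6 to 32.5 CPM) lie with shControl replicates 8 to 10 (27.5 to 38.3 CPM), and for Prr9 they lie above all others.

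The control libraries serve as the baseline for shYAP, so the run used as control was varied. Yap1 itself had 19.9, 19.1 and 17.8 CPM in the libraries labelled shYAP, against 9.54 to 21.9 CPM in the 10 shControl libraries. It was not lower in the libraries labelled shYAP by edgeR's quasi-likelihood test (log2 fold 0.20 ± 0.23, Benjamini-Hochberg adjusted p = 0.619), so those libraries are named here by their label alone. Against all 10 shControl libraries, 1261 of 11094 genes (11.4%) passed the threshold of 0.05, 607 higher and 654 lower. Against replicates 8 to 10 alone, 2229 of 10157 genes passed (21.9%), and against replicates 5 to 7 alone, 3024 of 10161 (29.8%). These counts share the 3 shYAP libraries, and a single run of controls has less spread than all 10. Both runs were drawn for the resemblance of their libraries, so that spread is small partly by choice. Nothing is read from the counts against a single run. Leaving out shYAP replicate 1, 2 or 3 gave 509, 412 or 515 genes against all controls.

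The 5 named genes whose fold differed most between the runs are given, so they were chosen for a wide spread among the controls and no p is given for them. Edn1 had a log2 fold of 1.29 ± 0.999 in the libraries labelled shYAP over all shControl libraries. Over replicates 8 to 10 alone it was -0.11 ± 0.17 and over replicates 5 to 7 alone 2.40 ± 0.29. Slc40a1 stood at -0.34 ± 0.70 over all controls, at 1.34 ± 0.28 over replicates 8 to 10 and at -1.49 ± 0.21 over replicates 5 to 7, so the sign turned with the run. Adm stood at -1.91 ± 0.66 over all controls, at -0.15 ± 0.44 over replicates 8 to 10 and at -2.63 ± 0.30 over replicates 5 to 7. Fam151a had -1.32 ± 1.01 over all controls, -0.21 ± 0.46 over replicates 8 to 10 and -2.71 ± 0.32 over replicates 5 to 7. Psors1c2 had -0.56 ± 1.10 over all controls, 0.66 ± 0.43 over replicates 8 to 10 and -2.04 ± 0.30 over replicates 5 to 7. Rnf186 was lower over all controls (-2.66 ± 0.66, edgeR, adjusted p = 0.0249), with -0.92 ± 0.11 over replicates 8 to 10 and -3.03 ± 0.14 over replicates 5 to 7. Smoc2, at -4.61 ± 0.92 over all controls (edgeR, adjusted p = 0.00411), was also lower over each run, at -5.54 ± 0.49 over replicates 8 to 10 and -4.10 ± 0.72 over replicates 5 to 7. Degs1 was higher over all controls at 1.47 ± 0.29 (edgeR, adjusted p = 0.00205), with 1.16 ± 0.28 over replicates 8 to 10 and 1.59 ± 0.33 over replicates 5 to 7.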

How the data were processed

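Poly(A)-selected, strand-specific libraries (NEBNext Ultra II Directional) were made from organoid RNA, per the labels' protocols. The deposited table holds expected counts per gene, which the authors made with Salmon 1.3.0 on mm10, per the submitters' processing notes. The values are whole numbers unscaled. The step from transcripts to genes is not given in the sources used here. Of the 54354 genes, 51485 IDs matched GENCODE M21 (mm10), which gave positions and lengths. Unnamed entries (1243) took up to 0.0475% of any library.

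Libraries were scaled by TMM over all 34 with edgeR 4.0.16 (R 4.3.3). Genes were kept by filterByExpr (minimum count 10, minimum total count 15) with the runs as groups. Levels are CPM computed here, and log2 differences use log2 CPM with a prior count of 2, which understates differences of low genes. Errors of the differences between the runs are SE from the 3 libraries of each run. Errors of the shYAP folds are SE of those folds, over the shYAP libraries and the control libraries named. CPM compares libraries, not genes. shYAP against shControl was tested with edgeR's robust quasi-likelihood test, two-sided, with Benjamini-Hochberg adjustment over all genes and a threshold of 0.05. Its p-values measure the spread between libraries, which may be technical. Measures made from the genes' own counts were given without a test, since the runs were drawn from them. The steps were tested on simulated data.

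The runs, lists and rules were chosen with earlier results of these data known. From 51 lists and 5 added later, those described had the largest medians or shares of called members, or were always included. Named genes were Degs1 and Yap1, the 15 largest rises and 15 largest falls at an average log2 CPM of 3 or more (symbols of predicted genes and pseudogenes were skipped), up to 4 members of each described list, and the 5 genes whose shYAP fold differed most between the runs. Not all genes so selected are printed. Others named, such as the other S phase members, Insr, Pik3ip1 and Krt32, were chosen after their values were seen. Alternatives were TMM over 6 libraries, size factors as in DESeq2, other filters, prior counts and folds, thinned counts, each library left out, the replicate number as a block and the Wald test of DESeq2 1.42.0.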

Additional observations from a re-analysis of the deposited data

Results flagged for a closer look

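Among the 30 genes with the largest rises and falls, 5 had a library far from the other 3 within shControl replicates 1 to 4, by the gap to the nearest library divided by the range of the 4. Chance alone flags about 1 in 20 groups. H1f5 had 230.6 CPM in replicate 3 against 59.1 to 88.3 CPM in the others (0.8295). H4c4 had 70.1 CPM in replicate 3 against 18.0 to 20.95 CPM in the others (0.944). Fen1 had 18.0 CPM in replicate 3 against 36.1 to 37.8 CPM in the others (0.916). Cbr2 had 258.5 CPM in replicate 1 against 136.6 to 154.7 CPM in the others (0.851). Pakap had 20.9 CPM in replicate 1 against 10.1 to 11.4 CPM in the others (0.878). For H1f5, H4c4 and Fen1 the library was replicate 3, the shallowest of replicates 1 to 4 with 1747533 counts.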

How the results depend on the processing

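Against 211 genes higher and 376 lower, the counts were 356 and 590 with no filter on low counts, 90 and 187 at a mean of at least 8 CPM, 769 and 1047 at 1.5-fold, and 11 and 34 at 4-fold. Leaving out each library gave 264 to 374 higher and 433 to 536 lower, since fewer libraries overlap less often. No called gene turned to the opposite call under any of these alternatives, nor did the difference of any of the 101 genes selected by the naming rule change sign. Filters, fold thresholds and the overlap rule cannot change a sign. Nearly all of the 101 genes were picked for large differences, so little could have turned. Genes chosen after their values were seen, such as Krt32 and Malat1, were not recomputed. With libraries thinned to the smallest total, 363 of 449 called genes were among the 587. The share of higher among all calls was 35.9%, and 24.4% at 4-fold. Of list medians recomputed, 22 of 242 moved by more than the spread between libraries. For shYAP, the count of 1261 was 1280 with size factors as in DESeq2, 1276 with no filter, 1664 by the Wald test of DESeq2, 2229, 3024 and 2604 against replicates 8 to 10, 5 to 7 and 1 to 4 alone, and 412 to 515 without each shYAP library. With the replicate number as a block it was 1730, but same-numbered libraries were not paired by any label. Replicates 8 to 10 and 5 to 7 had been drawn for their resemblance, so nothing is read from the counts against them. Between the runs, no paired analysis was possible because the replicates share no numbers. The shYAP fold changed sign for Yap1 (-0.065 over replicates 5 to 7), Slc40a1 (1.34 over 8 to 10, 0.27 over 1 to 4, 0.29 with the block), Psors1c2 (0.66, 2.20 and 2.32 in the same order), Edn1 (-0.11 over 8 to 10) and Fam151a (0.68 over 1 to 4, 0.92 with the block). The cause was not tested. Replicate 6, with 2470845 counts, limits what low genes can show.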

Other observations

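Lists not described above also held called genes, given as log2 differences of shControl replicates 8 to 10 minus 5 to 7. The members named were chosen after their values were seen, and 2.03% of all genes tested were called higher and 3.61% lower. Lipid synthesis genes had 5 of 21 members called lower and 0 higher, with a median of -0.29. These were Scd1, which desaturates stearoyl-CoA (-1.02), Me1, a malic enzyme (-1.16), Lpin1, a phosphatidate phosphatase (-1.34), Acss2, which makes acetyl-CoA from acetate (-1.35), and Mogat2, a monoacylglycerol acyltransferase (-1.44). Cholesterol synthesis and uptake genes had 0 of 25 called and a median of -0.19. Genes under NRF2 and of glutathione metabolism had 4 of 23 called lower and 0 higher, with a median of -0.14, among them Nqo1, a quinone reductase (-1.10), and Gsta3, a glutathione transferase (-1.42).

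Immediate early genes went both ways, with 3 of 21 called higher and 2 lower and a median of 0.07. Egr1, a zinc finger factor induced by growth factors, had 12.6, 11.97 and 15.5 CPM in replicates 8, 9 and 10, against 4.13, 9.21 and 4.98 CPM in replicates 5, 6 and 7. Btg2, an antiproliferative gene, was called lower (-1.42). MAPK feedback and EGFR ligand genes had 3 of 21 called higher and 2 lower, with a median of -0.28, and Dusp4, a MAPK phosphatase, had 8.95, 14.97 and 10.7 CPM in replicates 8, 9 and 10, against 28.3, 32.2 and 29.9 CPM in replicates 5, 6 and 7. Of 8 Notch pathway genes tested, Hes1, a Notch target, was called lower (-1.51). Of 30 sphingolipid and ceramide genes, 2 were called higher, Smpd3, a neutral sphingomyelinase (1.32), and Acer1, an alkaline ceramidase (1.14), and 0 lower, with a median of -0.01.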
